A study of Mus musculus with 6 samples.

Results

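The genes described here encode 10 secreted or membrane-bound inflammatory ligands: the CC chemokines Ccl2, Ccl3, Ccl4, Ccl6, Ccl9 and Ccl22, the CXC chemokines Cxcl1, Cxcl2 and Pf4, and the cytokine Tnf. They were taken by name, and each was found as exactly 1 transcript cluster with 1 gene symbol, so that 10 of the 22180 genes measured are described. Affymetrix Mouse Gene 2.0 ST arrays were used, with RNA of myeloid cells from mouse fetal liver kept in 1 ng/ml GM-CSF. The 3 control samples (uninduced A, B and C) received no doxycycline, and the 3 induced ones (A, B and C) received 1000 ng/ml of it for 72 hours, which the labels equate with expression of PU.1. The control samples were likewise cultured for 72 hours. Neither the engineered construct, nor the strain, nor whether the cells are 1 clone or pooled, is given in the sources used here. Doxycycline was given only with PU.1 induction, so the drug and PU.1 cannot be told apart. Nothing in the labels says whether the 3 samples of a group were grown separately, so the p-values rest on a spread that may be only technical.

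Chemokines are small proteins that draw leukocytes along a gradient by binding receptors coupled to G proteins. Their families are named after the spacing of their first cysteines: CC chemokines act mainly on monocytes, macrophages and lymphocytes, while CXC chemokines such as Cxcl1 and Cxcl2 draw neutrophils. Tumour necrosis factor is made as a membrane protein, is cut from the cell surface by the protease ADAM17, and acts through the receptors encoded by Tnfrsf1a and Tnfrsf1b to activate NF-kB. In macrophages many of these genes are transcribed within minutes of a stimulus and their mRNAs, several of which carry AU-rich elements, are short-lived.

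None of the 10 ligand genes passed the test between induced and uninduced cells: 0 were higher and 0 lower at a limma adjusted p under 0.05, beside 0.374% of all genes higher and 1.05% lower. At an unadjusted p under 0.05, 0 ligand genes were higher and 3 lower (Ccl3, Ccl4 and Ccl9), where 11.4% of all genes were higher and 16.9% lower. Ccl3, Ccl6, Ccl9 and Tnf were above the range of background on all 6 arrays, Ccl4 and Cxcl2 on 5, and Ccl2, Ccl22, Cxcl1 and Pf4 on none. The range of background is the part of the scale below the 95th percentile of 1390 olfactory and vomeronasal receptor genes on the same array. This limit was 7.37, 7.05 and 7.34 on uninduced A, B and C and 7.39 on induced A, but 7.99 and 7.86 on induced B and C, so that a gene needed a higher value there to count as above it. Among the induced arrays, 7 of the 10 ligand genes were highest on induced B, as were 35.3% of all genes. Of these 7, Ccl2 and Ccl22 were in the range of background on every array.

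The promoters of 5 of these genes are given because the results turn on them: Ccl3 and Ccl9 had the largest differences, Cxcl2 and Tnf the largest spread within groups, and Cxcl1 is the close relative of Cxcl2 whose signal stayed in the range of background. Promoter sequences from RefSeq (build GRCm38.p6) were found for 8 of the 10 genes. In GRCm38 coordinates Pf4 (90772435 to 90773383), Cxcl1 (90891245 to 90893121) and Cxcl2 (90903899 to 90905938) lie on chromosome 5, Ccl2 (82035577 to 82037452), Ccl9 (83572917 to 83578636) and Ccl6 (83587886 to 83593087) with Ccl3 and Ccl4 on chromosome 11, Ccl22 (94745684 to 94751388) on chromosome 8 and Tnf (35199367 to 35202007) on chromosome 17. Each run is the 250 bases before the start of the gene, 5′ to 3′ on its own strand. Capitals mark matches, on either strand, to the TATA box TATAAA, to the consensus kappaB site of NF-kB, to GAGGAA, which holds the core bound by PU.1 and other ETS factors, and to the AP-1 site TGANTCA.
Ccl3, chr11:83649379-83649628, minus strand: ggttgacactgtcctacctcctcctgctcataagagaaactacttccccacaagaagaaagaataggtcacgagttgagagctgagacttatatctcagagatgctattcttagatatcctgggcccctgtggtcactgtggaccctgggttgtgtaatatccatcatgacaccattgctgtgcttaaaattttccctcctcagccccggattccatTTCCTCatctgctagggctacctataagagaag
Ccl9, chr11:83578637-83578886, minus strand: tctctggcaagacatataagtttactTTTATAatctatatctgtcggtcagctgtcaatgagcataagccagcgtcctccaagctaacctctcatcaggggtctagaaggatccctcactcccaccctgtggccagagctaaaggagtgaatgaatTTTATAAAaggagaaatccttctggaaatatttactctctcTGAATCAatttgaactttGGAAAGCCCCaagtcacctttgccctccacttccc
Cxcl1, chr5:90890995-90891244, plus strand: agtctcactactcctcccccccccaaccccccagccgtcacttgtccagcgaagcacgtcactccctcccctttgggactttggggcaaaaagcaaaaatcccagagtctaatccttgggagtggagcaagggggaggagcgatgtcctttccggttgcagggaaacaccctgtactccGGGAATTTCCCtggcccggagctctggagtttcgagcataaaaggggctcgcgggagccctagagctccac
Cxcl2, chr5:90903649-90903898, plus strand: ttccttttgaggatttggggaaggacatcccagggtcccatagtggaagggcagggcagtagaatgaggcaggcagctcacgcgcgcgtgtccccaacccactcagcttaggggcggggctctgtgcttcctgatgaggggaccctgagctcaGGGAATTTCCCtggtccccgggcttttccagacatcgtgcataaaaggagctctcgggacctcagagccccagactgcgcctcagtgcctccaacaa
Tnf, chr17:35202008-35202257, minus strand: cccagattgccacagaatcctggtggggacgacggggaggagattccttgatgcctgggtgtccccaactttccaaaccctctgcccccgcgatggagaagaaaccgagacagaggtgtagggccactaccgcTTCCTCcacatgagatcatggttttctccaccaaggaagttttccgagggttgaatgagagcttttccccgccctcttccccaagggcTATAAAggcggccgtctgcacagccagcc

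Cxcl1 and Cxcl2 each held 2 kappaB matches that overlap, 1 per strand, in the same run of letters (GGGAATTTCCC), from base 71 to 61 before the start in Cxcl1 and from 97 to 87 in Cxcl2. Ccl9 had 1 kappaB match (bases 35 to 26), 1 TGANTCA match and 3 TATAAA matches, 2 of them overlapping on opposite strands. Tnf had TATAAA at bases 29 to 24 and GAGGAA on the other strand, and Ccl3 had GAGGAA on the other strand at bases 33 to 28. Over the 8 promoters, kappaB was matched in 3, GAGGAA in 3, TATAAA in 2 and TGANTCA in 1; of all 32851 promoters of the same length, the shares were 7.25%, 23.3%, 12.4% and 6.75%. A match describes these letters only.

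Ccl3 encodes MIP-1alpha, a ligand of Ccr1 that recruits monocytes and lymphocytes. Its log2 value was 12.90, 12.87 and 12.73 on uninduced arrays A, B and C, against 11.71, 12.75 and 12.02 on the induced arrays in the same order. Induced A and C lay below every uninduced array, and induced B lay between uninduced B and C, so the groups overlapped. The difference was -0.67 (SE 0.23, limma adjusted p = 0.125), 1.59-fold lower by the means, with a 95% interval from -1.17 to -0.17; intervals here carry no adjustment for multiple genes. Without induced B it was -0.97 and passed the threshold (limma adjusted p = 0.0266). Without any other single array it did not pass, at -0.72 to -0.45 (limma adjusted p = 0.111 to 0.360).

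Ccl4, which encodes the chemokine MIP-1beta, lies beside Ccl3 on chromosome 11, and the RefSeq span of Ccl4 (83648624 to 83664683) overlaps that of Ccl3 (83647843 to 83649378). How far the 2 transcript clusters separate signal from the overlap is not known here. Ccl4 was at 8.21, 8.47 and 8.04 without induction, against 7.43, 8.22 and 7.63 with it. As for Ccl3, induced B was the highest induced array and induced A and C were below all uninduced arrays; induced C was in the range of background. The difference of -0.48 (SE 0.20, 95% interval -0.93 to -0.03) did not pass the test (adjusted p = 0.163). It was -0.71 without induced B and -0.32 without induced A, neither past the threshold.

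Ccl6 and Ccl9 encode CC chemokines of rodents that act through Ccr1 and are made by myeloid cells. Ccl6 was at 12.03, 12.02 and 12.15 uninduced and at 11.58, 11.98 and 11.79 induced. Its groups did not overlap, but only by 0.04 on the log2 scale, and the difference of -0.28 (SE 0.14, 95% interval -0.59 to 0.03) did not pass the test (adjusted p = 0.20). Ccl9 was at 10.06, 9.92 and 10.43 uninduced and at 9.66, 9.65 and 9.62 induced, with a range of only 0.04 among the induced arrays. All 3 induced arrays were below all 3 uninduced ones, by at least 0.26, and the difference of -0.49 (SE 0.15, 95% interval -0.83 to -0.16) had an adjusted p of 0.114, the smallest among the 10 genes.

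Ccl2, the monocyte attractant MCP-1 that binds Ccr2, was at 6.56, 6.45 and 6.46 uninduced and at 6.77, 7.13 and 6.59 induced. All 3 induced arrays were above the uninduced ones, but all 6 values were in the range of background, and the difference of 0.34 (95% interval -0.01 to 0.68) did not pass (adjusted p = 0.181). Ccl22, a ligand of Ccr4 made by macrophages and dendritic cells, was at 6.84, 6.37 and 6.49 and at 6.76, 7.04 and 6.75; the groups overlapped, all values were in the range of background, and the adjusted p was 0.241. In all, the groups did not overlap for 1 ligand gene higher in induced cells (Ccl2) and 2 lower (Ccl6 and Ccl9), where 16.0% of all genes were separated upwards and 15.4% downwards.

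**Figure D1:**
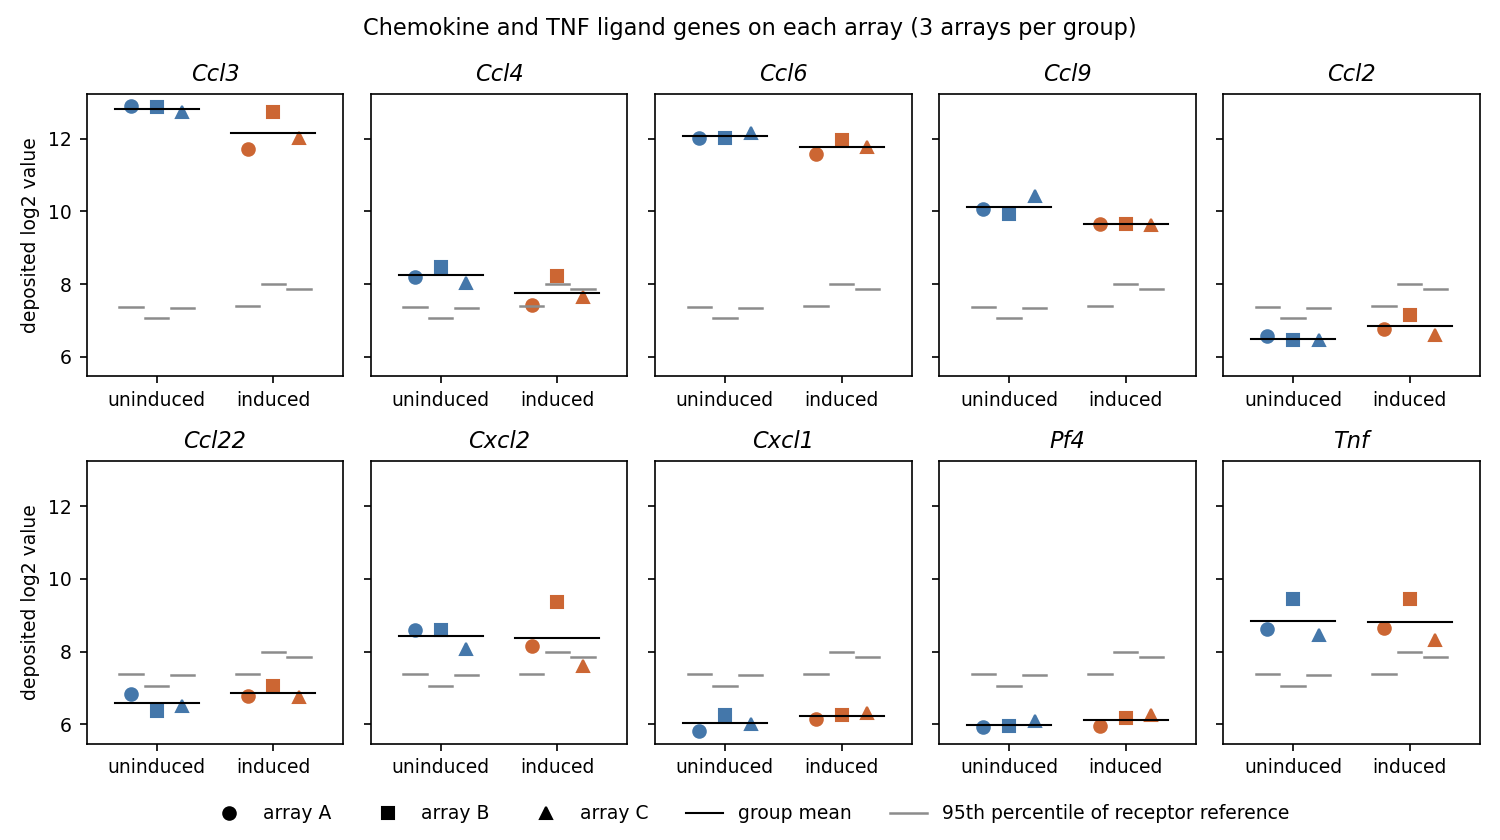
Deposited log2 value (y axis) of each ligand gene in uninduced and induced cells, 1 marker per array (circle A, square B, triangle C), with the group mean in black and, in grey, the 95th percentile of the receptor genes on that array. Ccl3, Ccl4 and Cxcl2 have induced B above induced A and C, Tnf has B highest in both groups, and Ccl2, Ccl22, Cxcl1 and Pf4 lie under the grey marks on every array.

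Cxcl2, which encodes MIP-2 and draws neutrophils through Cxcr2, had the widest induced spread of the 10 genes. The uninduced arrays A, B and C gave 8.60, 8.60 and 8.07, and the induced arrays A, B and C gave 8.15, 9.38 and 7.61. Induced B was above every uninduced array, induced C was below every one and in the range of background, and induced A lay within the uninduced range. The means, 8.42 ± 0.30 and 8.38 ± 0.91 (SD, n = 3 per group), differed by -0.04 (SE 0.36, adjusted p = 0.933). The 95% interval of -0.84 to 0.75 spans ratios from 0.558 to 1.69, so differences of that size were not resolved. Only 17 of the 22180 genes had a larger SD among the induced arrays, a count made after the values were seen. The difference was -0.54 without induced B and 0.34 without induced C, neither past the threshold (adjusted p = 0.328 and 0.545).

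Cxcl1, which encodes KC, another ligand of Cxcr2 encoded close to Cxcl2 on chromosome 5, was at 5.81, 6.25 and 5.996 uninduced and at 6.14, 6.24 and 6.29 induced. All 6 values were under the limit of the background range, the groups overlapped and the difference of 0.20 had an adjusted p of 0.329. Pf4, platelet factor 4, a chemokine stored in platelet granules and made by megakaryocytes, was also in that range on all 6 arrays, at 5.92, 5.94 and 6.09 and at 5.94, 6.17 and 6.26 (difference 0.14, adjusted p = 0.463). Of 14 other megakaryocyte and platelet markers 0 passed the test (limma; 1 higher and 2 lower at an unadjusted p under 0.05). Their differences were above 0 for 12 and had a median of 0.14, and their mean log2 value was 6.77, 6.62 and 6.70 on uninduced A, B and C and 6.68, 6.82 and 6.84 on induced A, B and C. The number above the range of background was 4, 3 and 3 on the uninduced arrays and 3, 0 and 0 on the induced ones, with the higher limit on induced B and C given above. The 2 with the highest mean value were Nfe2 and Gfi1b, transcription factors of the megakaryocyte and erythroid lines, at -0.75 and 0.13 (adjusted p = 0.0717 and 0.471).

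Tnf, the TNF gene itself, differed more between letters than between groups. Uninduced A, B and C gave 8.62, 9.44 and 8.46; induced A, B and C gave 8.66, 9.45 and 8.33. The B arrays exceeded the mean of A and C by 0.90 in uninduced and by 0.95 in induced cells, and the differences between samples of the same letter were 0.04, 0.01 and -0.14. The means, 8.84 ± 0.53 and 8.81 ± 0.58 (SD, n = 3 per group), differed by -0.03 (SE 0.30, adjusted p = 0.948). The 95% interval ran from -0.70 to 0.64, or ratios from 0.617 to 1.56. The letters are not tied by any label to a common culture or date. Over all genes the deviations from the group mean of same-letter arrays correlated at -0.31 (A), -0.28 (B) and 0.42 (C). With 3 arrays per group these values cannot decide whether the letters pair the samples. Nfkbia, the NF-kB inhibitor that NF-kB itself induces, was likewise highest on both B arrays, at 9.70, 10.41 and 9.67 uninduced and 9.25, 10.12 and 9.34 induced. Of the other NF-kB feedback targets, so were Nfkbiz, Tnfaip3 and Zc3h12a (named after their values were seen). Nfkbib, Nfkbie, Tnfaip2, Tnip1 and Bcl3 were highest on induced A, and Traf1 and Icam1 were not highest on uninduced B. The share of all genes highest on both B arrays was not counted. Osm, the cytokine oncostatin M, chosen after its values were seen, was at 10.60, 11.03 and 10.23 and at 9.20, 10.67 and 9.02, again highest on B in each group. Neither Nfkbia (-0.36, adjusted p = 0.329) nor Osm (-0.99, adjusted p = 0.140) passed the test.

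**Figure D2:**
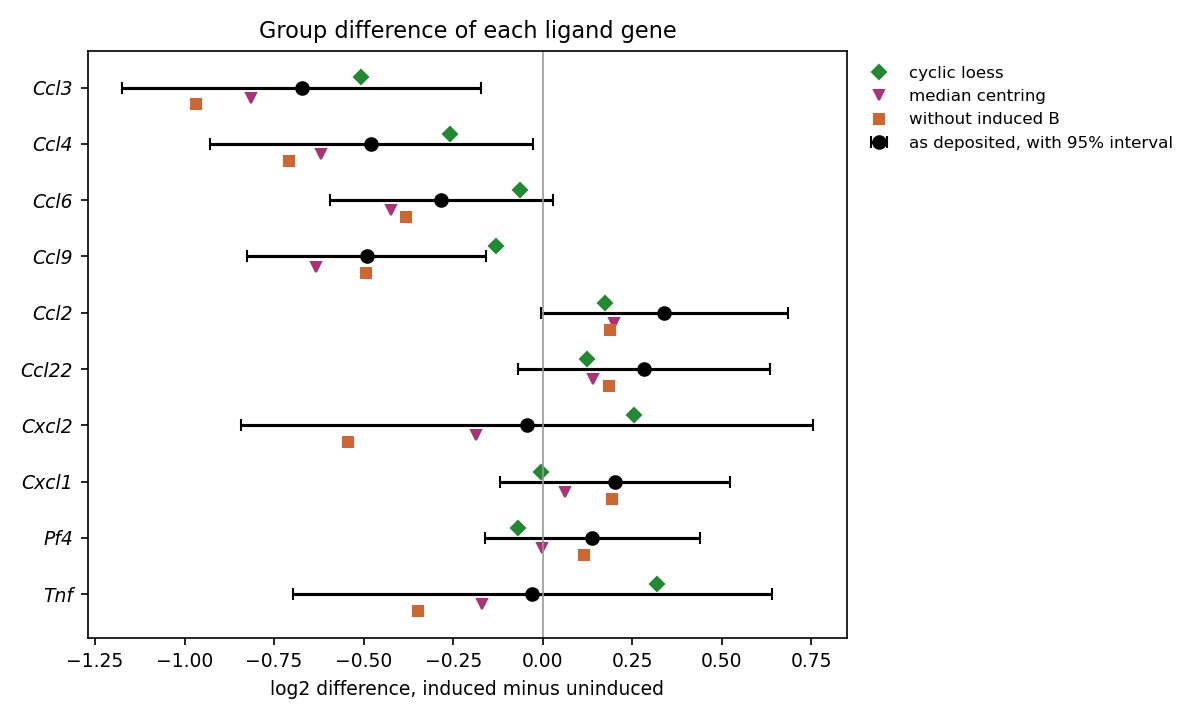
Log2 difference, induced minus uninduced (x axis), of each ligand gene as deposited (black, with its unadjusted 95% interval), after cyclic loess (green), after median centring (purple) and without induced B (orange). Ccl3, Ccl4, Ccl6 and Ccl9 stay below 0 in all of these, while Cxcl2 and Tnf change sign after cyclic loess (0.26 and 0.32). Cxcl1 and Pf4 also change sign after cyclic loess (-0.0053 and -0.071), and Pf4 after median centring (-0.0025).

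Induced B was the highest induced array for 7 of the 10 (Ccl2, Ccl3, Ccl4, Ccl6, Ccl22, Cxcl2 and Tnf) and for 35.3% of all genes. In the uninduced cells the highest array was A for 4 ligand genes, B for 3 and C for 3. The median over the 10 genes of the value minus the uninduced mean was -0.23 on induced A, 0.20 on induced B and -0.40 on induced C, beside 0.00, 0.07 and 0.06 over all genes. Over all genes, induced A correlated at 0.991 with uninduced A, above the range of same-group pairs (0.973 to 0.988). What sets induced B apart in the ligand genes, or induced A over all genes, was not tested.

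The signs of the differences went with the level of the gene. The 4 ligand genes in the range of background on all arrays (Ccl2, Ccl22, Cxcl1 and Pf4) had differences from 0.14 to 0.34, and the 6 others had differences below 0. The same held over the arrays at large: the median difference was 0.19 among the 11922 genes in that range on all arrays, of which 87.1% were above 0, and -0.31 among the 5379 genes above it on all arrays, of which 14.1% were above 0. The receptor genes used as the reference had a median of 0.28. The part of this shift in the members' differences was not tested. Cyclic loess levels such a trend whatever its source, so it cannot tell a technical shift from a true one. After it, Ccl3 was at -0.51 (limma adjusted p = 0.375), Ccl4 at -0.26 (0.569), Ccl6 at -0.06 (0.887) and Ccl9 at -0.13 (0.762). Cxcl1 and Pf4 were then at -0.01 and -0.07, on the other side of 0. The median of the 10 differences was -0.04, beside 0.06 for all genes.

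Of the other chemokine ligand genes, 0 of 26 passed the test (limma; 9 higher and 1 lower at an unadjusted p under 0.05), 20 never left the range of background, and their median difference was 0.28. Ccl5 (RANTES), in the same chromosome 11 cluster as Ccl9, was in that range throughout, at 7.03 ± 0.20 and 7.46 ± 0.09 (n = 3 per group, adjusted p = 0.123), as was Cxcl3, of the chromosome 5 cluster, at 4.66 ± 0.14 and 5.12 ± 0.04 (adjusted p = 0.101). Ccl25 and Cxcl17, the 2 with the highest mean value, were at -0.11 and 0.58, with adjusted p = 0.594 and 0.121. Among 15 other ligands of the TNF superfamily 1 fell and 0 rose. Tnfsf13b, which encodes the B cell survival factor BAFF, fell from 9.30, 9.499 and 9.58 to 8.53, 8.41 and 8.58, with no overlap, a difference of -0.96 (SE 0.13, adjusted p = 0.00648) or 1.94-fold. After cyclic loess it was -0.60 and no longer passed (adjusted p = 0.100). Lta and Ltb, the lymphotoxin genes on either side of Tnf on chromosome 17, stayed under the background limit throughout and had adjusted p = 0.189 and 0.112.

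On the receptor side, 2 of 11 measured genes rose and 0 fell. Cxcr2, the neutrophil receptor of Cxcl1 and Cxcl2, went from 7.79, 7.61 and 7.19 to 8.44, 9.18 and 8.38, a rise of 2.19-fold (difference 1.13, SE 0.23, adjusted p = 0.0383) with no overlap between groups. It exceeded the range of background on 2 uninduced arrays, not on uninduced C, and on 3 induced arrays. The call ended when any array but induced A was left out, at differences of 0.88 to 1.28 (adjusted p = 0.0754 to 0.116). Ccr2, the receptor of Ccl2, rose (adjusted p = 0.00246) but all 6 of its values were in the range of background, and its size is therefore left out; it passed under all 16 alternatives that tested it. Ccr1, which binds Ccl3, Ccl6 and Ccl9, was above that range on all arrays and did not pass, at 8.55 ± 0.07 and 8.65 ± 0.31 (difference 0.10, 95% interval -0.27 to 0.46, adjusted p = 0.672). Tnfrsf1a and Tnfrsf1b, the receptors of TNF, were at 9.57 ± 0.21 and 9.24 ± 0.25 and at 10.44 ± 0.18 and 10.09 ± 0.36, with differences of -0.33 and -0.35 (adjusted p = 0.203 and 0.223). Ccr3, Ccr4, Cxcr1, Cxcr3, Ackr1 and Ackr2 had differences of 0.07 to 0.33 that did not pass, and Ackr2, a scavenger of CC chemokines, was the only one of these 6 above the range of background on all arrays.

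Of 14 genes of TNF release, the TNF receptor complex and NF-kB, 1 fell and 0 rose. Tradd, the adaptor that the TNF receptor encoded by Tnfrsf1a recruits, fell from 8.004, 8.24 and 8.14 to 7.66, 7.12 and 7.02 (difference -0.86, SE 0.18, adjusted p = 0.0425), and 1 induced array of 3 exceeded the range of background. Its call ended without any single array but induced A, at -0.93 to -0.74 (adjusted p = 0.102 to 0.208). Of 11 feedback targets of NF-kB and of 10 regulators of AU-rich mRNAs, 0 passed (limma; 1 higher and 2 lower, and 0 and 2, at an unadjusted p under 0.05), with medians of -0.25 and -0.22. Tnfaip2, a TNF-induced gene, was at -0.27 (adjusted p = 0.225). Among the regulators Mapkapk2, a kinase that stabilises Tnf mRNA, was at -0.21, and Zfp36l2 at 0.15 (adjusted p = 0.327 and 0.470). Zfp36, which encodes tristetraprolin, the protein that marks Tnf mRNA for decay, was at 10.34 ± 0.01 and 10.37 ± 0.15 (adjusted p = 0.892; named after its values were seen). Of 16 other inflammatory cytokines Mif, the macrophage migration inhibitory factor, fell 2.11-fold from 10.44, 10.30 and 10.60 to 9.67, 9.36 and 9.08 (difference -1.08, SE 0.17, adjusted p = 0.0114). The call of Mif ended without uninduced A (-1.08, adjusted p = 0.0598), without induced C (-0.94, adjusted p = 0.0579) and after cyclic loess (-0.72, adjusted p = 0.0859).

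**Figure D3:**
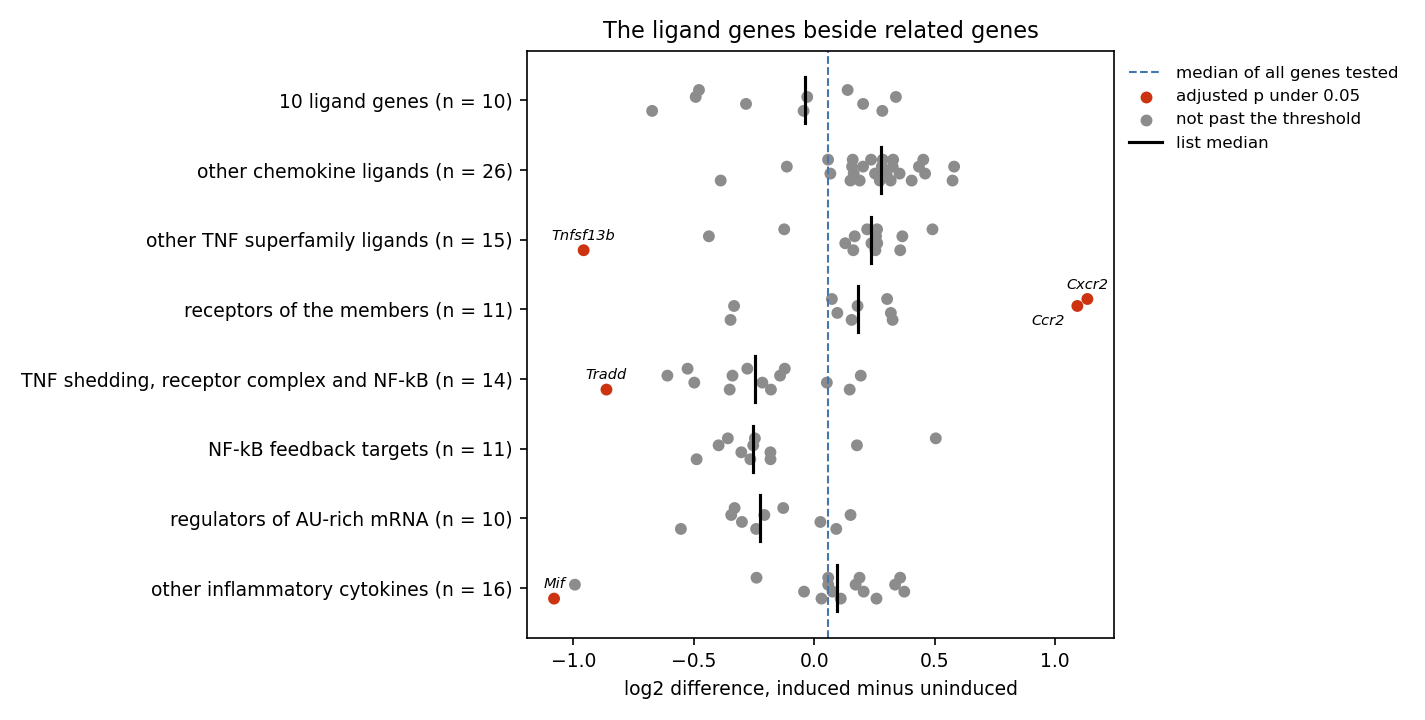
Log2 difference, induced minus uninduced (x axis), of every measured gene in the ligand list and in 7 lists of related genes, 1 point per gene, with the median of each list in black and that of all 22180 genes as a dashed line. Red points passed limma at an adjusted p under 0.05: Tnfsf13b, Cxcr2, Ccr2, Tradd and Mif, and none of the 10 ligand genes.

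Spi1, the gene of PU.1, was at 8.76 ± 0.10 and 9.07 ± 0.05 (n = 3 per group; difference 0.31, adjusted p = 0.152), and whether its transcript cluster covers the engineered copy is not known here. Of 14 myeloid markers 5 rose (Lyz2, Adgre1, Cd68, Mpo and Ptprc) and 0 fell (limma; 7 higher and 1 lower at an unadjusted p under 0.05). Their differences were above 0 for 10 and below 0 for 4. These 4, named after their values were seen, were Cd14 (-0.78), Cebpa (-0.40), Fcgr3 (-0.25) and Csf2rb (-0.09). Of the 14 markers, 9 were above the range of background on all arrays, while Ptprc was within it on all of them. No marker of mast cells and basophils (12 measured), T and NK cells (8), B cells (7), stroma and endothelium (9), hepatocytes (6) or erythroid cells (4) passed the test (limma; 7 higher and 3 lower at an unadjusted p under 0.05). Of these 46 genes 38 were in the range of background on all 6 arrays, 5 of the 6 hepatocyte markers among them, although the labelled tissue is fetal liver. The 2 with the highest mean value in each of these lists differed by 0.0018 (Kit, the stem cell factor receptor) and -0.91 (Mcpt8, a basophil protease; adjusted p = 0.0666), by 0.21 (Nkg7) and 0.11 (Cd3e), by 0.11 (Pax5) and 0.12 (Igll1), by -0.21 (Kdr) and 0.26 (Col1a1), by 0.29 (Apoa1) and 0.23 (Apoa2), and by -0.36 (Tfrc) and 0.08 (Epor), with adjusted p from 0.164 to 0.995 for the 11 other than Mcpt8. Correlations between arrays were 0.973 to 0.988 for pairs of the same group and 0.942 to 0.991 for pairs of different groups. Since whole cultures were measured, fewer cells making a ligand and less RNA per cell cannot be told apart.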

How the data were processed

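RNA of 6 samples was hybridised to 1 array each, and each array was placed in its group by its title. The authors deposited 1 log2 value per transcript cluster and array, for 41345 transcript clusters; the scale was taken as log2 because the values spanned 2.86 to 14.03. Per the submitters' processing notes, Partek and mouse build mm10 were used; the sources used here do not give the background correction, the normalization or the summary method. Names came from GEO's platform annotation (23521 with 1 symbol, 1814 with several, 16010 not listed), the one with the highest mean standing for a gene.

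The groups were compared over 22180 genes with limma 3.58.1 in R 4.3.3 (lmFit, eBayes, two-sided, no covariate, no filter), with Benjamini-Hochberg adjustment at 0.05; differences are induced minus uninduced. The test was tested on simulated data. The simulated noise was independent for each gene and held no shift with the level of the gene, so it does not cover the shift described above. The ligand genes, the lists, the naming rule and the tests were chosen with earlier results of these data known. The rule names the 10 ligand genes, Spi1, the receptors, Ccl5, Cxcl3, Lta and Ltb, list members past the threshold and, where a list had none, its 2 with the highest mean. Of 204 listed names 186 were matched. Related genes such as Cxcl1 and Cxcl2 may share probe signal, which was not tested. The number of arrays limits the precision.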

Additional observations from a re-analysis of the deposited data

How the results depend on the processing

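Of 166 values of the 10 ligand genes under the alternatives, 144 kept their direction and their side of the threshold, 7 newly passed it and 15 changed sign. Array weights account for 5 of the 7 and called 4 ligand genes lower (Ccl3, Ccl4, Ccl6 and Ccl9) and 1 higher (Cxcl1), but rested on uninduced C (weight 4.60) and induced C (3.46) and called 51.9% of all genes, 5825 higher and 5681 lower. Ccl3 was the 1 ligand gene called lower when both B arrays were left out (-0.95; chosen after seeing the data), and with single arrays left out 0 to 1 ligand genes were lower. Sign changes were as follows, with none past the threshold and the cause not tested: after quantile normalization Cxcl2 0.11, Pf4 -0.012 and Tnf 0.18; after median centring Pf4 -0.0025; after cyclic loess Cxcl1 -0.0053, Cxcl2 0.26, Pf4 -0.071 and Tnf 0.32. Leaving out 1 array at a time put Cxcl2 between -0.54 and 0.34 and Tnf between -0.35 and 0.27. Over all genes, 83 were higher and 232 lower as deposited. The numbers were 174 and 425 with the replicate block, which takes the letters as pairs though no label says so. They were 46 and 153 after median centring, 36 and 44 over all transcript clusters, and 43 and 55 at an adjusted p under 0.01. Without both B arrays 49 and 77 were called, and after cyclic loess 118 were lower. With 1 array left out the fit called 45 to 61 higher and 47 to 93 lower genes, but 1998 and 3535 without induced A. Median centring moved the median of all genes by -0.14. Of all calls, 26.3% were higher genes before and 41.3% after cyclic loess. The replicate block called 0 ligand genes. The calls of Tradd and Cxcr2 also ended after quantile normalization (-0.85 and 1.24), after median centring (-1.0032 and 0.99) and over all transcript clusters (-0.86 and 1.13), that of Tradd after cyclic loess (-0.73), and that of Mif over all transcript clusters (-1.08). The filter at the 50th percentile left 6 of the 10 to test. Low signal limits what can be said of the levels of Ccl2, Ccl22, Cxcl1 and Pf4, which were not resolved from background on any array. Ccr2 and Ptprc passed the test within the same range. Whether low signal kept Ccl2, Ccl22, Cxcl1 and Pf4 from passing was not tested.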
